A study of Danio rerio with 9 samples.

Results

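The genes of the vacuolar proton pump and of the vesicle fusion machinery that serves lysosomes and vacuoles were described in 3 sorted cell populations of zebrafish. How much of each was notochord sheath was not tested. Members were all gene IDs whose symbol, ignoring case, begins with atp6v0, atp6v1 or atp6ap, together with VPS11, VPS16, VPS18, VPS33A, VPS39, VPS41, the RAB32 genes, the LAMP1 genes and LAMP2. This gave 38 of the 32266 gene IDs counted, namely 9 of the membrane sector V0, 13 of the catalytic sector V1, 5 pump accessory proteins, 6 subunits of the HOPS complex, 2 Rab32 GTPases and 3 Lamp proteins. The rule reads gene symbols and no expression value, and it was set with earlier results of these data known. Many names are written in capitals without the zebrafish paralog letter, so the ID follows any name that more than 1 ID carries, and the 2 RAB32 IDs and LAMP1 were matched without that letter.

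RNA was sequenced from cells sorted by fluorescence from fish of strain EK at 13 days after fertilization. The sorted populations were entpd5a+, double-positive (col9a2 and entpd5a) and col9a2+, each with 3 replicate libraries, 9 in all. The design describes the fish as transgenic, whereas the genotype label of each library reads wild type, and the reporter constructs are not given in the sources used here. Entpd5a releases phosphate and is needed for bone to mineralize, and col9a2 makes part of a cartilage collagen. The labels do not say whether replicates are separate fish, pools or sorts, so each p-value reflects only how far these libraries spread, which may be technical. In sorted bulk cells, fewer cells of a type and less RNA per cell cannot be told apart.

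The vacuolar ATPase is a rotary pump. Its V1 sector hydrolyses ATP in the cytosol, and its V0 sector carries protons across the membrane into lysosomes, endosomes and related organelles. HOPS tethers late endosomes and lysosomes before SNARE proteins fuse them, Rab32 directs cargo to lysosome-related organelles such as melanosomes, and Lamp proteins line the lysosomal membrane. In zebrafish, the large vacuoles of the inner notochord cells are lysosome-related organelles that need the proton pump and Rab32a, while the sheath cells around them do not carry such a vacuole.

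Library totals were 39955994 to 46708240 counts in 5 shallower libraries and 67788360 to 81471212 counts in 4 deeper ones (entpd5a+ 2 and 3, double-positive 3 and col9a2+ 3). The deeper libraries also held 17961 to 27157 CPM of hsp70l, a heat-shock gene (CPM are counts scaled to the library's TMM-corrected total), against 277 to 909 CPM in the shallower ones. Summed CPM of 13 sheath marker IDs was 2575 to 3963 in entpd5a+, 14276 to 27833 in double-positive and 47935 to 72031 in col9a2+ libraries, and noto was at 0 in each. What share of each sorted population, entpd5a+ above all, was sheath cells was not tested. A single ID, COL2A1 (ENSDARG00000069093), gave 82.3 to 1143 CPM of the sum in entpd5a+, 1707 to 5144 CPM in double-positive and 28725 to 50522 CPM in col9a2+ libraries. The sum also holds COL9A2, the gene after which cells were sorted, so it is not independent of the sort. COL9A2 gave 64.7 to 429, 811 to 1580 and 7738 to 11560 CPM in the same order of populations. CCN2, with 746 to 2496 CPM in entpd5a+, 8285 to 14146 CPM in double-positive and 2438 to 4253 CPM in col9a2+ libraries, was highest in double-positive libraries, as were both SHH IDs. Other sheath markers were lowest there, namely COL2A1 (ENSDARG00000011407) at 5.10 to 45.2 CPM and MATN4 at 6.71 to 25.5 CPM. In entpd5a+ libraries these had 179 to 327 and 132 to 177 CPM, and in col9a2+ libraries 418 to 544 and 184 to 238 CPM. Summed CPM of 13 leukocyte and osteoclast marker IDs was 72.3 to 89.8, 9.11 to 54.7 and 45.1 to 58.9 in the same order of populations, and that of 11 ionocyte marker IDs 17.8 to 36.1, 1.87 to 19.1 and 12.6 to 33.2. Entpd5a+ library 1 stood apart with 62.5 CPM of pigment cell markers (at most 12.0 elsewhere), and double-positive library 1 with 223 CPM of endothelial markers. The endothelial sum was 53.8 to 69.5 CPM in entpd5a+ libraries, 1.72 and 6.13 CPM in the other double-positive libraries and 8.82 to 21.5 CPM in col9a2+ libraries. In entpd5a+ libraries FLI1 made up 48.0 to 67.1 CPM of it. Each member called below kept its call without entpd5a+ library 1 and without double-positive library 1, while leaving out other libraries lost calls, as given below. What part pigment or endothelial cells had in the calls was not tested.

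The summed level of these genes was lowest in entpd5a+ cells, and its mean was highest in double-positive cells. Over all 38 members it averaged 852 ± 114 CPM in entpd5a+, 1698 ± 287 CPM in double-positive and 1320 ± 283 CPM in col9a2+ cells (SD, n = 3 each). The entpd5a+ libraries, at 731 to 957 CPM, lay below all double-positive libraries, at 1426 to 1998 CPM, and below all col9a2+ libraries, at 1009 to 1563 CPM. The double-positive and col9a2+ libraries overlapped. With 3 libraries against 3 an exact permutation test cannot give a two-sided p below 0.10, so these sums carry no test.

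**Figure D1:**
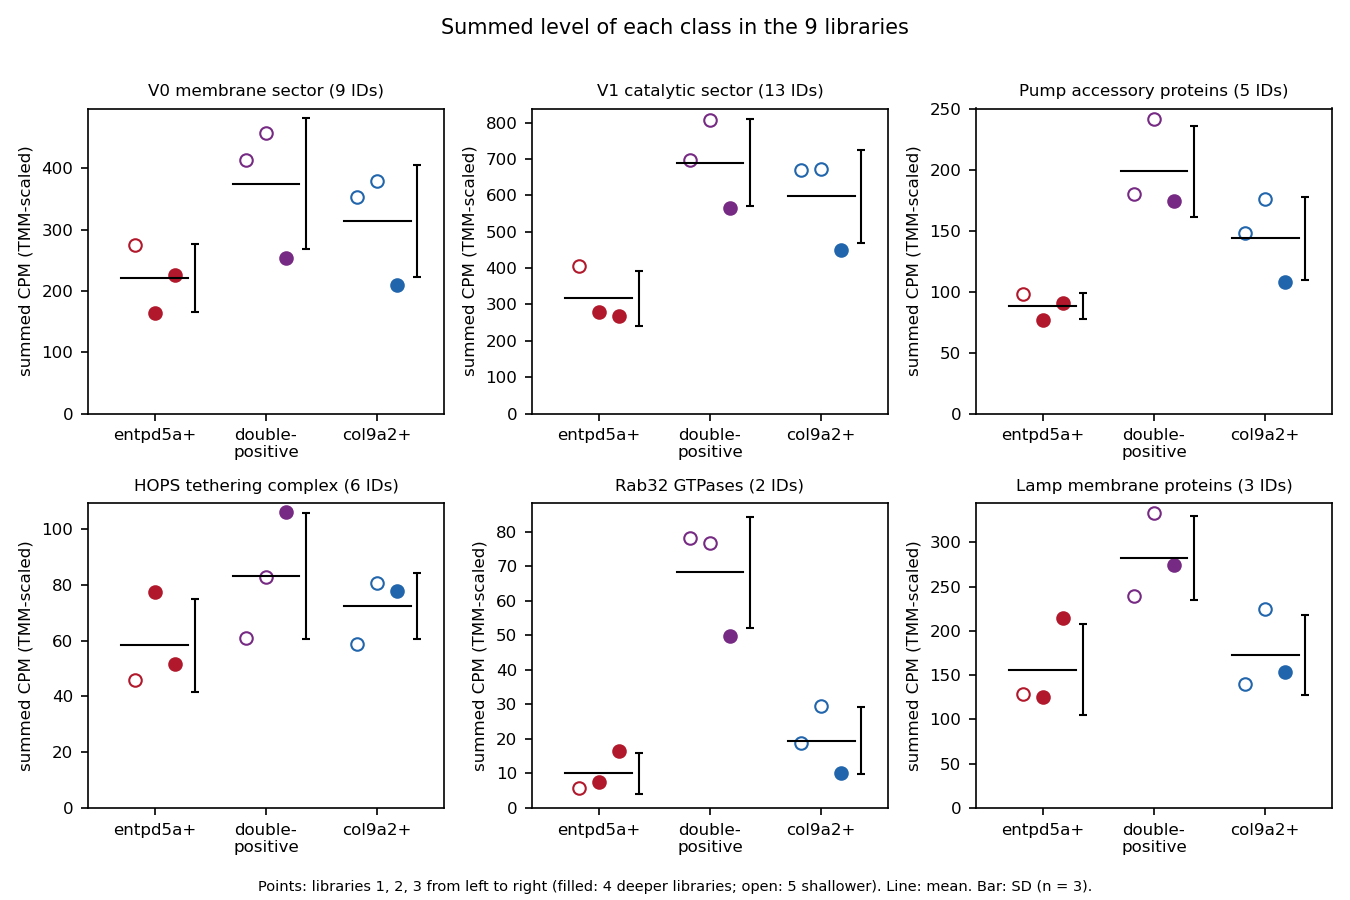
Summed TMM-scaled CPM (vertical axes) of the 6 classes in the 9 libraries, by population (horizontal axes). Points are libraries, lines means and bars SD. The V1 sum was 268 to 404 CPM in entpd5a+ libraries, below the 566 to 806 CPM of double-positive and the 450 to 673 CPM of col9a2+ libraries.

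Of the 38 members, 35 passed the filter on low counts and were tested. ATP6V1C2 had no count in any library. The accessory gene atp6ap1la had at most 2 counts in a library, and atp6ap1lb had 57, 0 and 33 counts in entpd5a+, 0 in each double-positive and 0, 7 and 0 counts in col9a2+ libraries. The comparisons asked which members differed between the sorted populations. They share libraries, so their results are not independent of each other.

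Between entpd5a+ and col9a2+ cells, 1 member passed the test, ATP6V1C1 (ENSDARG00000023967), which was lower in entpd5a+ cells, and no member was higher. That is 1 of 35 tested members, or 2.86%, against a background of 5.02% of all 19039 genes tested (2.34% lower and 2.68% higher). The fitted difference was below 0 for 31 of the 35 members, with a median of -0.66 on the log2 scale against 0.02 over all genes. The libraries did not overlap, with entpd5a+ lower, for 9 of the 35 members, against 12.2% of all genes, and 8 of those 9 were V1 subunits. They did not overlap with entpd5a+ higher for 1 member, ATP6V0A2 (ENSDARG00000035538), against 12.4% of all genes.

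Between entpd5a+ and double-positive cells, 3 members were lower in entpd5a+ cells, namely RAB32 (ENSDARG00000029036), ATP6V1H and ATP6V1C1 (ENSDARG00000023967), and none was higher. The share of 8.57% of 35 members stands beside a background of 6.51% of all genes (3.45% lower and 3.06% higher). Fitted differences were below 0 for 32 of 35 members, with a median of -0.84 against 0.07 over all genes. The libraries did not overlap for 22 of the 35 members, all lower in entpd5a+, against 11.8% of all genes.

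Between double-positive and col9a2+ cells, no member passed the test in edgeR, against a background of 3.54% of all genes. By the unadjusted p, 2 of 35 members were under 0.05, as were 16.2% of all genes, and DESeq2 called 2 members and 10.6% of all genes. The median difference was 0.28 against 0.01 over all genes. The libraries did not overlap for 5 members, with double-positive higher, against 11.3% of all genes. These were RAB32 (ENSDARG00000029036), ATP6V0C (ENSDARG00000036577), ATP6V0A2 (ENSDARG00000035538), ATP6V1H and LAMP2. They did not overlap with double-positive lower for atp6ap1a, against 13.1% of all genes. This gene was low, with 1, 32 and 88 counts in double-positive and 71, 82 and 246 counts in col9a2+ libraries. Its log2 difference was -1.56 ± 1.16 (adjusted p = 0.606).

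**Figure D2:**
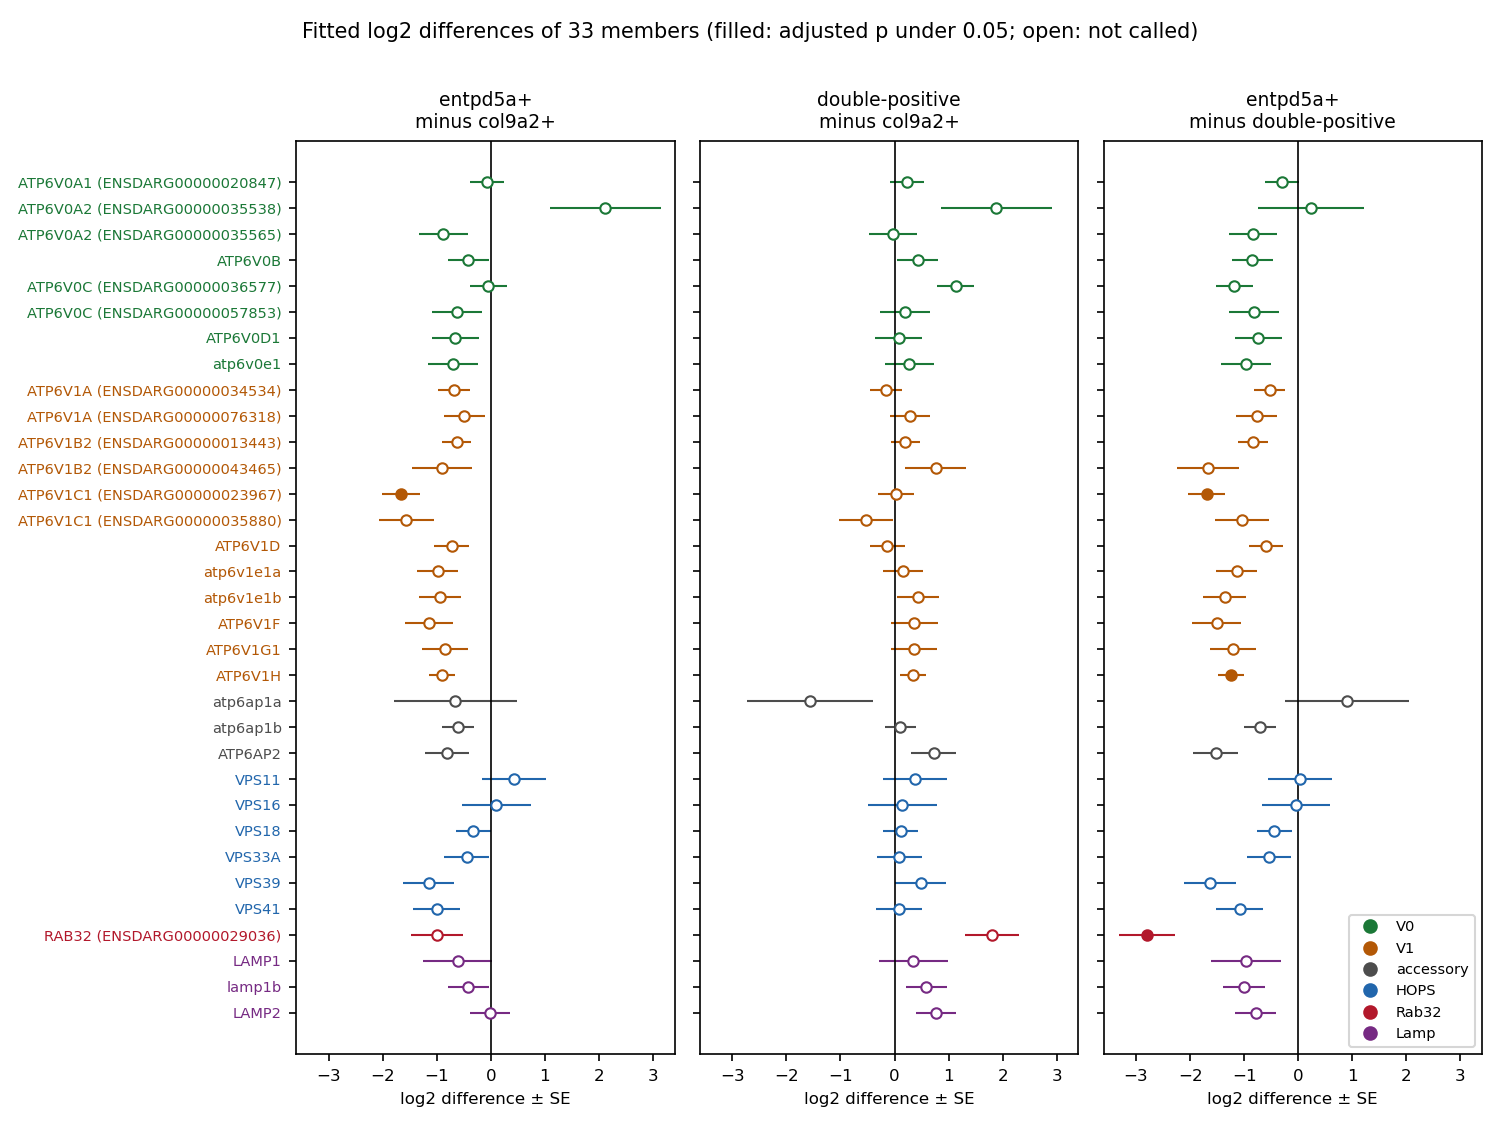
Fitted log2 differences with standard errors (horizontal axes) of 33 members (vertical axis) in the 3 comparisons, with filled points for an adjusted p under 0.05. The 12 V1 IDs all lie below 0 in both comparisons of entpd5a+ cells, and 2 low members, ATP6V0A1 (ENSDARG00000015174) and RAB32 (ENSDARG00000041165), are not drawn.

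In the V1 sector all 12 tested members had lower fitted levels in entpd5a+ than in col9a2+ and in double-positive cells. The median V1 difference was -0.90 against col9a2+ and -1.18 against double-positive cells. Between double-positive and col9a2+ cells, 3 of the 12 were below 0 and the median was 0.24. The 13th V1 ID, ATP6V1C2, is the one without counts.

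ATP6V1C1 encodes subunit C, which joins V1 to V0 and is released when the pump comes apart. ATP6V1C1 (ENSDARG00000023967) stood at 24.8, 21.1 and 12.4 CPM in entpd5a+, 55.7, 74.9 and 57.7 CPM in double-positive, and 60.9, 77.0 and 46.3 CPM in col9a2+ libraries. All entpd5a+ libraries were below all others, and the other populations overlapped. The log2 difference was -1.66 ± 0.35 (SE) in entpd5a+ against col9a2+ cells, 3.16-fold lower (edgeR quasi-likelihood test, Benjamini-Hochberg adjusted p = 0.0241). Against double-positive cells it was -1.69 ± 0.35, 3.23-fold lower (adjusted p = 0.0190). Between double-positive and col9a2+ cells it was 0.03, with a 95% interval of -0.72 to 0.78. The call against col9a2+ cells was lost without entpd5a+ replicate 2 (adjusted p = 0.0830), entpd5a+ replicate 3 (0.0505), col9a2+ replicate 1 (0.0766) or col9a2+ replicate 2 (0.116), within a range of 0.000136 to 0.144 over 18 alternatives. The call against double-positive cells was lost without entpd5a+ replicate 2 (0.0651) or double-positive replicate 2 (0.0765), within a range of 0.000189 to 0.127.

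ATP6V1H encodes subunit H, which couples ATP hydrolysis to proton flow and silences V1 that has come off the membrane. Its level was 29.8, 26.7 and 26.7 CPM in entpd5a+, 70.6, 59.5 and 67.1 CPM in double-positive, and 55.0, 49.5 and 50.9 CPM in col9a2+ libraries. The 3 populations did not overlap, with entpd5a+ lowest and double-positive highest. The log2 difference of -1.24 ± 0.24 against double-positive cells, 2.37-fold lower, passed the test (adjusted p = 0.0164). The difference of -0.90 ± 0.24 against col9a2+ cells did not (adjusted p = 0.0675), although it was the smallest unadjusted p among V1 members not called there. Double-positive against col9a2+ cells gave 0.34 ± 0.24 (adjusted p = 0.575). The call against double-positive cells was lost without entpd5a+ replicate 2 (adjusted p = 0.0689) or double-positive replicate 2 (0.0527), within a range of 1.65e-05 to 0.175 over 18 alternatives.

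Among V1 members not called between entpd5a+ and double-positive cells, atp6v1e1b had the smallest p. It encodes a subunit E, part of the stalks that hold V1 still while it works. It had 63.8, 37.8 and 30.9 CPM in entpd5a+, 127, 133 and 81.4 CPM in double-positive, and 108, 93.3 and 52.7 CPM in col9a2+ libraries. Its entpd5a+ libraries were below all double-positive libraries and overlapped the col9a2+ ones, and the log2 difference of -1.36 ± 0.40 against double-positive cells had an adjusted p of 0.0757. The library of lowest level in each population was a deeper one.

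The remaining 9 tested V1 IDs were 2 each for the ATP-hydrolysing subunit A and its partner B, a second subunit C, and 1 each for the rotor subunits D and F and the stalk subunits E (atp6v1e1a) and G. Taken with the others, V1 log2 differences ran from -1.66 to -0.49 against col9a2+ cells and from -1.69 to -0.52 against double-positive cells. Entpd5a+ libraries lay below all col9a2+ ones for 8 of 12 V1 IDs, against 12.2% of all genes. They lay below all double-positive ones for 11 of 12, against 11.8% of all genes, the exception being ATP6V1C1 (ENSDARG00000035880). By the unadjusted p, 9 of 12 V1 IDs were under 0.05 against col9a2+ cells, where 16.8% of all genes were, and 8 of 12 against double-positive cells, where 20.7% were.

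**Figure D3:**
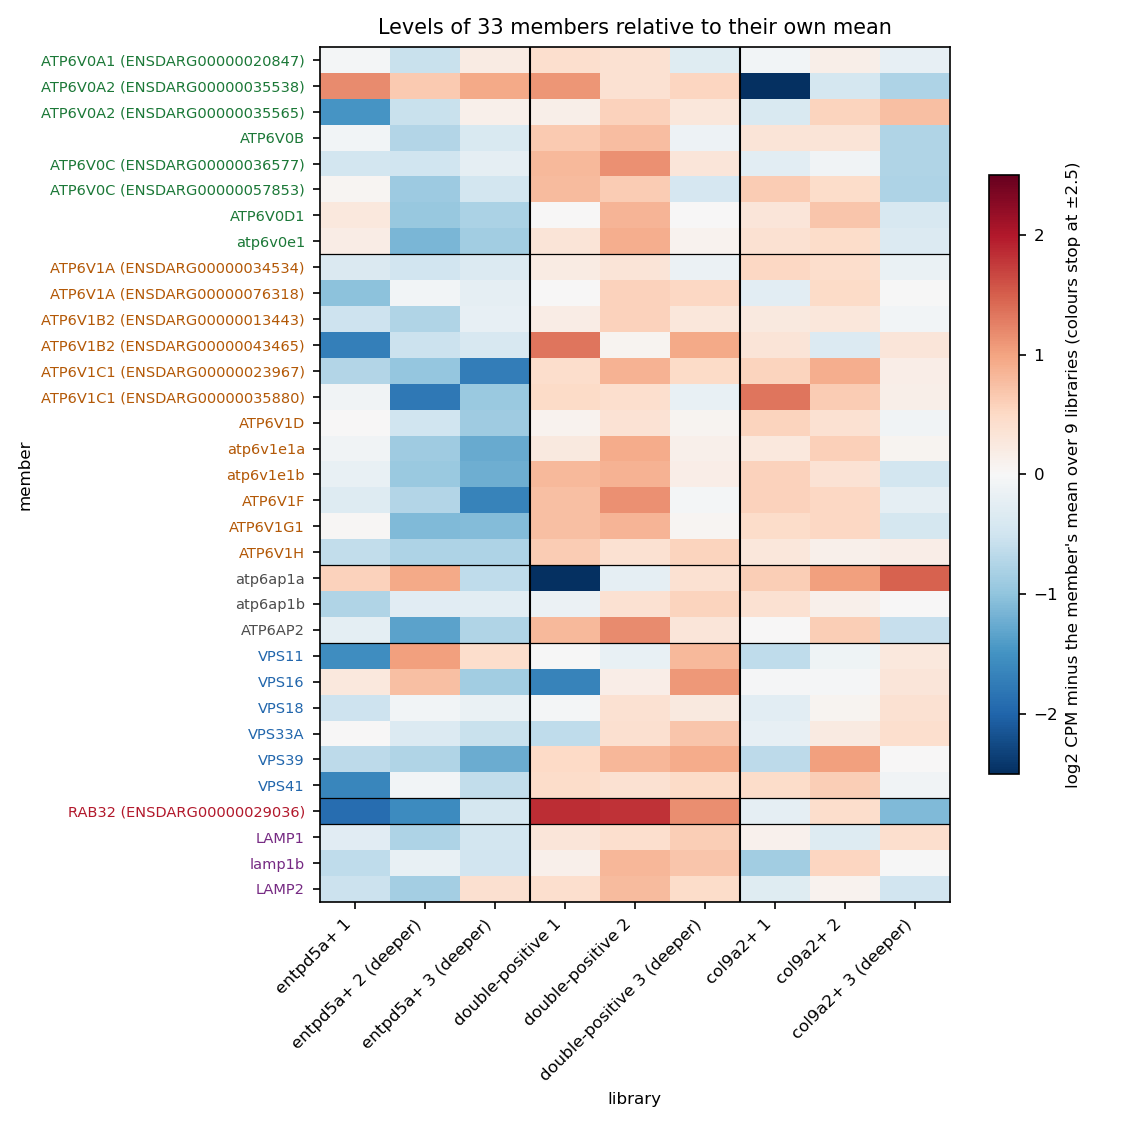
Level of 33 members (rows, by class) in the 9 libraries (columns), as log2 CPM minus the member's own mean over the libraries, with colours ending at 2.5 above and below. The V1 rows are mostly blue in the 3 entpd5a+ columns, and RAB32 (ENSDARG00000029036) is darkest red in double-positive columns. ATP6V0A1 (ENSDARG00000015174) and RAB32 (ENSDARG00000041165) are not drawn.

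No V0 member was called by edgeR in any of the comparisons. By the unadjusted p, 0, 1 and 2 of the 9 were under 0.05 in entpd5a+ against col9a2+, double-positive against col9a2+ and entpd5a+ against double-positive cells, and DESeq2 called 0, 1 and 1. Of all genes, 16.8%, 16.2% and 20.7% had such a p and DESeq2 called 11.3%, 10.6% and 15.1%, in the same order. The fitted difference was below 0 for 8 of the 9 V0 IDs in entpd5a+ cells against either other population, with medians of -0.42 against col9a2+ and -0.81 against double-positive cells. The summed V0 level was 221 ± 55.1 CPM in entpd5a+, 375 ± 107 CPM in double-positive and 314 ± 91.1 CPM in col9a2+ cells (SD, n = 3 each), and the entpd5a+ libraries overlapped both other populations. The ratio of the V1 sum to the V0 sum was 1.48, 1.70 and 1.19 in entpd5a+, 1.69, 1.76 and 2.23 in double-positive, and 1.89, 1.78 and 2.14 in col9a2+ libraries. All entpd5a+ ratios were below all col9a2+ ratios, and entpd5a+ library 2 overlapped the double-positive range. The ratio is of CPM uncorrected for gene length, so only its change between libraries can be read.

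ATP6V0C encodes subunit c, the proton-carrying piece of the V0 ring. ATP6V0C (ENSDARG00000036577) had 10.6, 10.4 and 12.5 CPM in entpd5a+, 25.7, 32.2 and 17.9 CPM in double-positive, and 12.1, 13.8 and 8.70 CPM in col9a2+ libraries. The double-positive libraries were above all others, and the entpd5a+ and col9a2+ libraries overlapped. Among V0 members it had the smallest unadjusted p in both comparisons of double-positive cells. Its log2 difference was -1.18 ± 0.34 in entpd5a+ against double-positive cells (adjusted p = 0.0769, DESeq2 0.0166, range over 18 alternatives 0.0166 to 0.277) and 1.13 ± 0.34 in double-positive against col9a2+ cells (adjusted p = 0.117, DESeq2 0.0297, range 0.0297 to 0.340). The other copy, ATP6V0C (ENSDARG00000057853), had 53.9 to 105, 75.7 to 175 and 59.3 to 159 CPM in entpd5a+, double-positive and col9a2+ libraries, and all of these ranges overlapped.

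ATP6V0A2 encodes a form of subunit a, the V0 piece that steers the pump to particular membranes. ATP6V0A2 (ENSDARG00000035538) was low throughout, with 2.05, 1.41 and 1.75 CPM in entpd5a+, 1.95, 1.17 and 1.30 CPM in double-positive, and 0.0428, 0.646 and 0.503 CPM in col9a2+ libraries. It was the V0 member with the smallest unadjusted p between entpd5a+ and col9a2+ cells, where its libraries did not overlap and entpd5a+ was higher, with a log2 difference of 2.12 ± 1.03 (adjusted p = 0.343). The ID named ATP6V0A2 (ENSDARG00000035565) ran the other way, with 7.93, 15.0 and 24.3 CPM in entpd5a+ and 16.9, 32.7 and 37.2 CPM in col9a2+ libraries, and those libraries overlapped (log2 difference -0.88 ± 0.45, adjusted p = 0.378). Of the summed counts of the 4 subunit a IDs, ENSDARG00000035538 took 2.47% to 4.33% in entpd5a+, 1.39% to 2.49% in double-positive and 0.0791% to 0.849% in col9a2+ libraries. ATP6V0A1 (ENSDARG00000015174) had 0, 9 and 20 counts in entpd5a+, 0, 7 and 36 counts in double-positive, and 18, 4 and 3 counts in col9a2+ libraries.

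Shares between the copies of V1 subunits A, B, C and E overlapped between the populations. Subunit E counts fell 57.9% to 60.2% on atp6v1e1b in entpd5a+, 58.6% to 68.4% in double-positive and 50.4% to 64.6% in col9a2+ libraries. Subunit C counts fell 68.7% to 87.2%, 78.7% to 85.8% and 69.0% to 82.1% on ATP6V1C1 (ENSDARG00000023967) in the same order of populations. These shares are not corrected for gene length, and reads shared by similar copies were not traced.

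None of the 3 tested pump accessory genes was called by edgeR. By the unadjusted p, 2 were under 0.05 between entpd5a+ and double-positive cells, where 20.7% of all genes were. In entpd5a+ and in double-positive against col9a2+ cells 0 were, beside 16.8% and 16.2% of all genes. DESeq2 called 1, ATP6AP2, between entpd5a+ and double-positive cells, where it called 15.1% of all genes. ATP6AP2, which helps the pump assemble and is also known as the prorenin receptor, is described here because of its values. It had 62.5, 29.4 and 43.9 CPM in entpd5a+, 130, 170 and 92.2 CPM in double-positive, and 74.5, 113 and 49.98 CPM in col9a2+ libraries. All entpd5a+ libraries were below all double-positive ones, with a log2 difference of -1.53 ± 0.42 (adjusted p = 0.0601). It was called under 4 of 18 alternatives, among them DESeq2 (0.0110), within a range of 0.0110 to 0.204. Its partner in assembly atp6ap1b had 32.7 to 46.0 CPM in entpd5a+, 50.04 to 81.3 CPM in double-positive and 55.4 to 72.2 CPM in col9a2+ libraries, so its entpd5a+ libraries lay below all others. The log2 difference of atp6ap1b was -0.60 ± 0.29 against col9a2+ (adjusted p = 0.346) and -0.71 ± 0.29 against double-positive cells (adjusted p = 0.203).

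Which of the 2 RAB32 IDs is rab32a was not settled, since neither name carries the paralog letter. RAB32 (ENSDARG00000029036) had the largest fall of the called members. It stood at 5.86, 7.35 and 16.1 CPM in entpd5a+, 78.2, 76.6 and 48.9 CPM in double-positive, and 18.7, 29.5 and 10.2 CPM in col9a2+ libraries. The double-positive libraries were above all others, and the entpd5a+ and col9a2+ libraries overlapped. In entpd5a+ against double-positive cells the log2 difference was -2.80 ± 0.52, 6.96-fold lower (adjusted p = 0.0129). This call was lost without entpd5a+ replicate 2 (adjusted p = 0.0607, within a range of 1.36e-05 to 0.0607 over 18 alternatives). In double-positive against col9a2+ cells the difference was 1.80 ± 0.50 (adjusted p = 0.0884, DESeq2 0.0152, range 0.0152 to 0.254). In entpd5a+ against col9a2+ cells it was -0.99 ± 0.49 (adjusted p = 0.351).

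The other Rab32 ID, RAB32 (ENSDARG00000041165), had 0, 11 and 39 counts in entpd5a+, 0, 10 and 55 counts in double-positive, and 1, 0 and 0 counts in col9a2+ libraries. It was near or at 0 in every col9a2+ library and in the first library of the other populations. Neither edgeR nor DESeq2 called it in any comparison, and no fold is given at these counts.

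**Figure D4:**
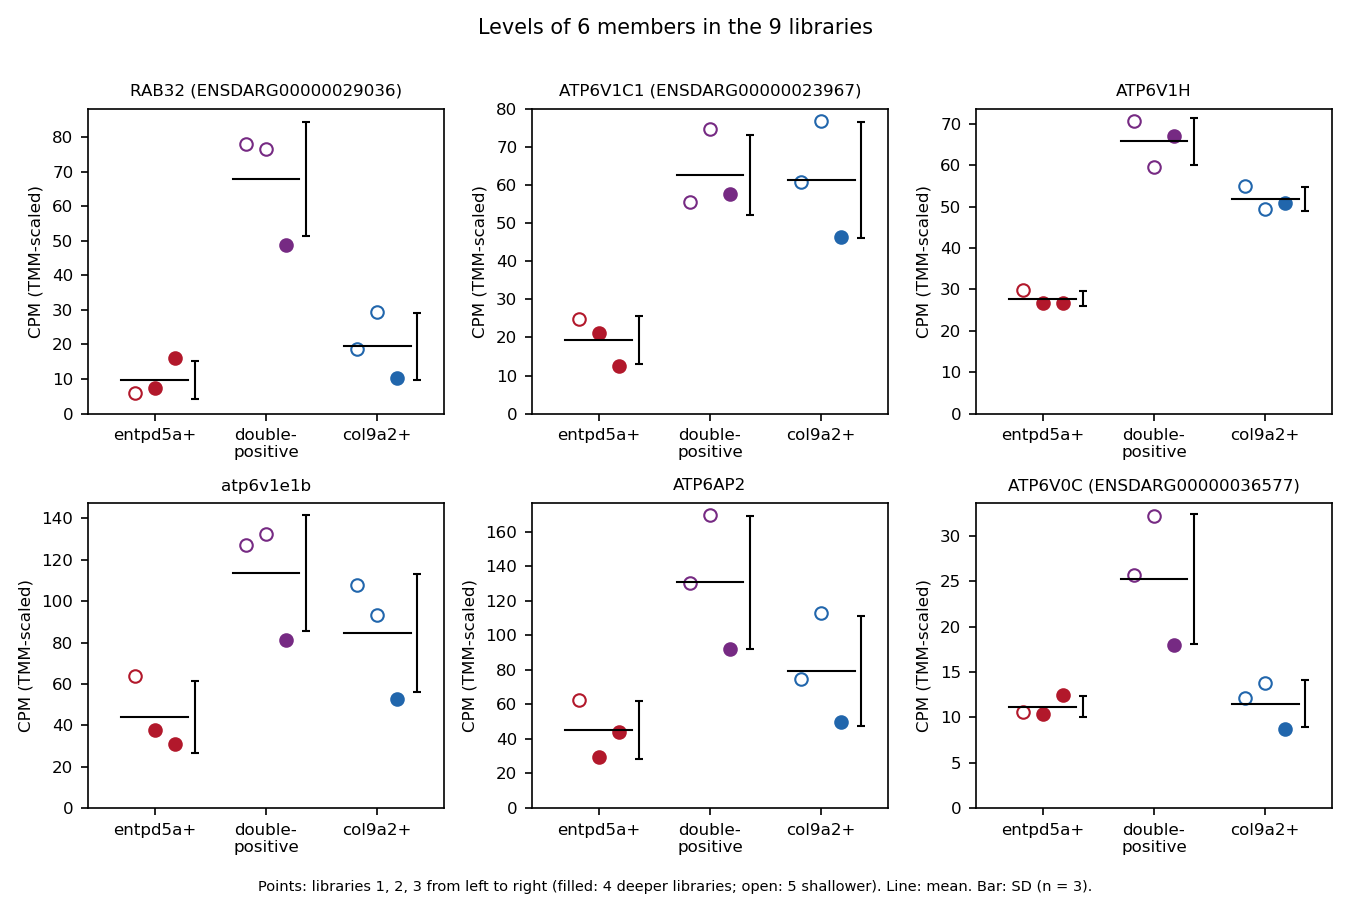
Levels (vertical axes, TMM-scaled CPM) of 6 members in the 9 libraries by population (horizontal axes), with filled points for the 4 deeper libraries, lines for means and bars for SD. RAB32 (ENSDARG00000029036) lies at 48.9 to 78.2 CPM in double-positive libraries, above the 5.86 to 16.1 CPM of entpd5a+ and the 10.2 to 29.5 CPM of col9a2+ libraries.

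No HOPS subunit was called by edgeR. By the unadjusted p, 2 of 6 were under 0.05 in entpd5a+ against col9a2+ cells, where 16.8% of all genes were. Against double-positive cells 2 of 6 were, beside 20.7% of all genes. In double-positive against col9a2+ cells 0 were, beside 16.2% of all genes. DESeq2 called 1, VPS39, between entpd5a+ and double-positive cells, where it called 15.1% of all genes. Fitted differences were below 0 for 4 of 6 in entpd5a+ against col9a2+ cells and for 5 of 6 in entpd5a+ against double-positive cells, and above 0 for all 6 in double-positive against col9a2+ cells. VPS39, which reads membrane identity at an end of the complex, had 4.77, 4.46 and 3.16 CPM in entpd5a+, 10.6, 13.5 and 14.4 CPM in double-positive, and 4.75, 15.2 and 7.52 CPM in col9a2+ libraries. VPS41, at the other end of the complex, had 3.42, 10.2 and 6.95 CPM in entpd5a+, 14.8, 13.9 and 15.0 CPM in double-positive, and 14.8, 16.4 and 10.1 CPM in col9a2+ libraries. For both of these end subunits the entpd5a+ libraries lay below all double-positive ones and overlapped the col9a2+ ones. Against double-positive cells the log2 difference was -1.63 ± 0.48 for VPS39 (adjusted p = 0.0809, DESeq2 0.0138, range over 17 alternatives 0.0138 to 0.495) and -1.08 ± 0.43 for VPS41 (adjusted p = 0.189).

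The core subunits VPS11, VPS16, VPS18 and VPS33A are shared with the early endosomal complex CORVET. VPS11 had 3.76, 22.6 and 15.2 CPM in entpd5a+, 11.1, 9.76 and 19.6 CPM in double-positive, and 7.22, 10.3 and 13.4 CPM in col9a2+ libraries. VPS16 had 12.3, 17.3 and 5.54 CPM in entpd5a+, 3.18, 11.4 and 21.5 CPM in double-positive, and 9.9998, 9.98 and 12.6 CPM in col9a2+ libraries. For both subunits the range of the entpd5a+ libraries covered the whole col9a2+ range. VPS18 had 10.02, 13.7 and 12.9 CPM in entpd5a+, 13.9, 18.9 and 17.0 CPM in double-positive, and 12.0, 15.1 and 18.7 CPM in col9a2+ libraries. VPS33A, the subunit that binds SNAREs, had 11.7, 9.15 and 7.85 CPM in entpd5a+, 7.49, 15.3 and 18.7 CPM in double-positive, and 9.9998, 13.6 and 15.5 CPM in col9a2+ libraries. Only for VPS18 were all entpd5a+ libraries below all double-positive ones among these 4 subunits, with 13.7 CPM in the nearest entpd5a+ against 13.9 CPM in the nearest double-positive library. Their log2 differences in entpd5a+ cells were -0.45 to 0.43 against col9a2+ and -0.54 to 0.04 against double-positive cells.

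The 3 Lamp IDs were all higher in each double-positive library than in each entpd5a+ library, against 11.8% of all genes. Neither edgeR nor DESeq2 called any of them. An unadjusted p under 0.05 was found for 1 of them between entpd5a+ and double-positive cells, beside 20.7% of all genes. It was found for 0 in entpd5a+ and in double-positive against col9a2+ cells, beside 16.8% and 16.2% of all genes. LAMP2 had 90.0, 72.9 and 172 CPM in entpd5a+, 174, 227 and 179 CPM in double-positive, and 106, 139 and 93.9 CPM in col9a2+ libraries. The nearest entpd5a+ and double-positive libraries held 172 and 174 CPM, and double-positive also lay above all col9a2+ libraries. The gene lamp1b had 37.2, 51.0 and 41.6 CPM in entpd5a+, 63.4, 104 and 93.2 CPM in double-positive, and 31.6, 84.2 and 57.2 CPM in col9a2+ libraries. LAMP1 was low, with 1.53, 1.09 and 1.35 CPM in entpd5a+, 2.33, 2.52 and 2.89 CPM in double-positive, and 2.03, 1.49 and 2.54 CPM in col9a2+ libraries. Log2 differences against double-positive cells were -0.79 ± 0.38 for LAMP2 (adjusted p = 0.272), -1.004 ± 0.38 for lamp1b (adjusted p = 0.167) and -0.96 ± 0.64 for LAMP1 (adjusted p = 0.461).

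Depth and hsp70l moved with part of the pump. In a fit with a term for depth, 4 members were lower in the deeper libraries, namely ATP6V0B, ATP6V0C (ENSDARG00000057853), atp6v1e1b and ATP6V1G1, and none was higher, against 6.21% of all genes lower and 3.52% higher. Since 2 of the 3 entpd5a+ libraries are deeper and 1 of 3 in each other population, the populations were also compared within each depth. All 12 tested V1 IDs were lower in entpd5a+ than in col9a2+ libraries, and than in double-positive libraries, within the deeper and within the shallower libraries, which held for 20.8% and 20.7% of all genes. Of all 35 tested members, 19 were lower in entpd5a+ than in col9a2+ cells and 26 lower than in double-positive cells within both depths. Members whose libraries did not overlap over both depths had to be lower within each. These were 8 and 11 of the 12 V1 IDs and 9 and 22 of the 35 members, against 12.2% and 11.8% of all genes. Each comparison within a depth also has a single library on 1 side, so it adds little to the comparison of all libraries. In double-positive against col9a2+ cells 11 members were higher within both depths, against 18.9% of all genes. With the depth term in the fit, 2 members were called against col9a2+ cells, beside 6.52% of all genes, and 7 against double-positive cells, beside 9.43%. All were lower in entpd5a+ cells. With the 5 shallower libraries alone, the median member difference in entpd5a+ cells was -0.59 against col9a2+ and -0.87 against double-positive cells. Over all genes it was -0.10 and -0.02. Since these hold a single entpd5a+ library, its spread was assumed to be that of the other populations' libraries. Counts of calls from that fit are not given, since they have no replicate check within entpd5a+ cells.

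Markers of vacuolated notochord cells were summed as a description, without a test. The summed CPM of their 6 IDs was 449 to 720 in entpd5a+, 720 to 1193 in double-positive and 802 to 1336 in col9a2+ libraries, and SLC38A8 (ENSDARG00000009482) was at 0 in each. The nearest entpd5a+ and double-positive libraries held 719.7 and 720.4 CPM. CAV1 gave 312 to 529, 376 to 576 and 481 to 674 CPM of the sum in the same order of populations, and these ranges overlapped. Of the 5 IDs with counts, cav3, a caveolar coat protein, had its highest median in double-positive libraries, with 14.1 to 26.3 CPM in entpd5a+, 120 to 316 CPM in double-positive and 44.3 to 166 CPM in col9a2+ libraries, and the other 4 had theirs in col9a2+ libraries. The leukocyte and ionocyte marker sums given above had their lowest medians in double-positive cells. CTSK alone gave 33.1 to 54.3 CPM of the leukocyte sum in entpd5a+ libraries and 21.9 to 32.95 CPM in col9a2+ libraries. It gave less in each double-positive library. Single leukocyte markers differed in where they peaked. The markers ptprc, SPI1, cd74a and MPEG1 (ENSDARG00000055290) were highest in double-positive library 1, at 2.48, 2.62, 16.4 and 4.03 CPM. CORO1A, LCP1, MPEG1 (ENSDARG00000043093) and MPEG1 (ENSDARG00000078569) were highest in entpd5a+ library 3, at 13.8, 3.05, 25.6 and 0.212 CPM. Peaks in col9a2+ libraries were those of lyz (17.4 CPM, library 2), csf1ra (2.52 CPM, library 3), and ACP5 and acp5b (1.24 and 2.55 CPM, library 1). What part vacuolated notochord cells, leukocytes, ionocytes and endothelial cells had in the pump values was not tested.

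Of 135 other genes of the pathway tested, on 4 lists, 7 were lower and none higher by edgeR in entpd5a+ than in col9a2+ cells, and DESeq2 called 12 lower and 4 higher. In entpd5a+ against double-positive cells 12 were lower and none higher, and DESeq2 called 24 lower and 4 higher. In double-positive against col9a2+ cells 2 were higher and none lower, and DESeq2 called 6 higher and 1 lower. The edgeR shares of 5.19%, 8.89% and 1.48% stand beside the backgrounds of 5.02%, 6.51% and 3.54% of all genes. DESeq2 called 11.3%, 15.1% and 10.6% of all genes in the same order of comparisons.

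Most of these calls were lysosomal hydrolases, the acid enzymes that work inside the organelle the pump acidifies. Of 42 tested, 6 (14.3%) were lower by edgeR in entpd5a+ than in col9a2+ cells, against 2.34% of all genes. Another comparison, with double-positive cells, gave 11 lower (26.2%), against 3.45% of all genes. DESeq2 called 10 lower and 3 higher against col9a2+ cells, and 15 lower and 4 higher against double-positive cells. The largest fitted rises in entpd5a+ cells were those of ctsbb (log2 difference 3.74 against col9a2+ and 2.70 against double-positive cells) and ctsl.1 (3.59 and 3.06), not called by edgeR. None was called by edgeR between double-positive and col9a2+ cells. There 8 had an unadjusted p under 0.05, as did 16.2% of all genes. DESeq2 called 3 higher and 1 lower there, beside 10.6% of all genes. ACP2, lysosomal acid phosphatase, had 19.8 ± 2.87 CPM in entpd5a+, 94.7 ± 39.96 CPM in double-positive and 73.8 ± 14.6 CPM in col9a2+ cells (SD, n = 3 each), with log2 differences of -2.26 ± 0.37 against double-positive (adjusted p = 0.00879) and -1.90 ± 0.37 against col9a2+ cells (adjusted p = 0.0177). HEXA, the alpha chain of beta-hexosaminidase, had a log2 difference of -2.68 ± 0.45 against double-positive cells (adjusted p = 0.00899), and FUCA1 (ENSDARG00000035890), a fucosidase, one of -1.57 ± 0.28 against col9a2+ cells (adjusted p = 0.0125). For this FUCA1 ID the difference against double-positive cells was -0.40 (adjusted p = 0.479). In double-positive against col9a2+ cells it was -1.17 (adjusted p = 0.0513).

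Outside the hydrolases, 3 list genes were called by edgeR, a smaller share than of all genes. Among Rab7, CORVET, HOPS partners and SNAREs, 1 of 38 tested (2.63%) was called in each comparison. Among other lysosomal membrane and transport genes, 1 of 37 (2.70%) was called in double-positive against col9a2+ cells and 0 in the other comparisons. Of all genes, 5.02% were called in entpd5a+ and 3.54% in double-positive against col9a2+ cells, and 6.51% in entpd5a+ against double-positive cells. VAMP8, a SNARE of late endosomes, had 6.21 ± 0.33 CPM in entpd5a+, 28.3 ± 7.69 CPM in double-positive and 10.5 ± 2.20 CPM in col9a2+ cells. It fell in entpd5a+ against double-positive cells (log2 difference -2.19 ± 0.34, adjusted p = 0.00709) and higher in double-positive than in col9a2+ cells (1.43 ± 0.34, adjusted p = 0.0481). The gene rab38c, a relative of Rab32, had 0, 0.844 and 0.987 CPM in entpd5a+ and 17.2, 16.7 and 8.76 CPM in col9a2+ libraries, a log2 difference of -4.52 ± 1.11 (adjusted p = 0.0464). SORT1 (ENSDARG00000029402), a receptor that sorts cargo to lysosomes, had 200 ± 13.7 CPM in double-positive and 68.2 ± 12.5 CPM in col9a2+ cells (log2 difference 1.55 ± 0.29, adjusted p = 0.0181). No gene was called by edgeR among 18 tested for pump assembly and partners in any of the comparisons. Of these, 3 had an unadjusted p under 0.05 between entpd5a+ and double-positive cells, where 20.7% of all genes did. In entpd5a+ and in double-positive against col9a2+ cells 0 did, beside 16.8% and 16.2% of all genes. Between entpd5a+ and double-positive cells DESeq2 called 2, both lower in the entpd5a+ cells, beside 15.1% of all genes.

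**Figure D5:**
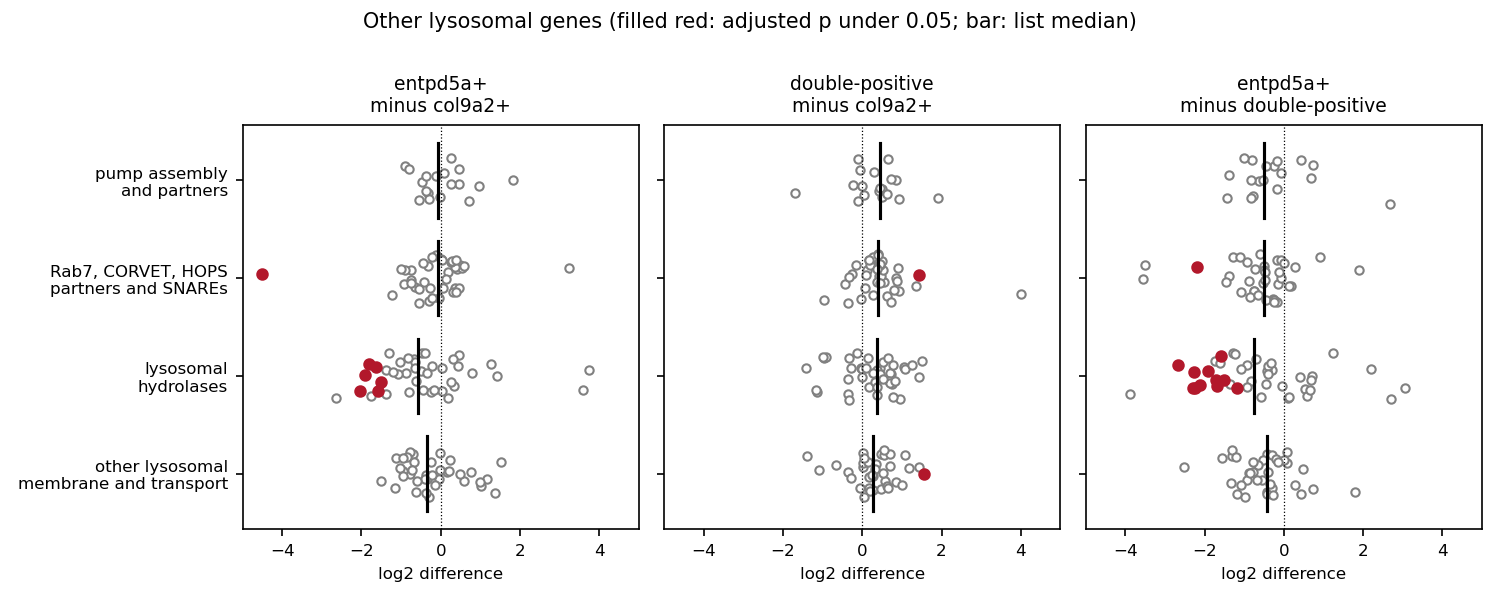
Fitted log2 differences (horizontal axes) of 135 other lysosomal and endosomal genes in 4 lists (vertical axis) and 3 comparisons, with filled points for an adjusted p under 0.05 and bars for list medians. The called hydrolases, 6 and 11, all lie below 0 in the comparisons of entpd5a+ cells.

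The counts of called list genes depended on single libraries, as did the share of all genes called. With a library left out, that share was 1.74% to 4.87% in entpd5a+ against col9a2+ cells (5.02% with all 9 libraries). It was 2.65% to 5.32% in entpd5a+ against double-positive cells (6.51%) and 1.19% to 3.87% in double-positive against col9a2+ cells (3.54%). Against col9a2+ cells the 7 calls in entpd5a+ became 4, 2 and 1 without entpd5a+ replicates 1, 2 and 3, 4 without double-positive replicate 2, and 2, 0 and 3 without col9a2+ replicates 1, 2 and 3. The 12 calls against double-positive cells became 6 without entpd5a+ replicate 2 and 6 without double-positive replicate 2. The 2 calls between double-positive and col9a2+ cells became 0 without double-positive replicate 2 or any col9a2+ replicate, and 1 without any other library.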

How the data were processed

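Gene expression was measured by RNA sequencing of ultra-low-input cDNA libraries. The deposited files hold raw counts of reads per Ensembl gene, which the authors made with HISAT2, HTSeq and build GRCz10, per the submitters' processing notes. Versions, the strand setting and the genotype of the reporters are not given in the sources used here. Of 32266 gene IDs, 26433 (81.92%) had a name in the name table supplied, and no chromosome positions or sequences were used here.

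The tests were run on these counts with edgeR 4.0.16 under R 4.3.3. After filterByExpr, 19039 genes remained. TMM factors scaled the libraries, and 1 robust quasi-likelihood fit covered all 9 libraries, with the 3 populations as its terms. Each pair of populations was compared by a two-sided F test, with Benjamini-Hochberg adjustment over all genes tested and calls at an adjusted p under 0.05. A standard error is the size of the log2 difference over the root of its F value. All CPM are TMM-scaled, and those plotted as log2 have a prior count of 2 added. The common dispersion came to 0.588, and 1 count was worth 0.0114 to 0.0260 CPM. Groups follow the labels.

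The members, the 4 pathway lists and the 6 marker lists were chosen with earlier results of these data known. Named members are those called in any comparison, all Rab32, HOPS and Lamp members, and the V0 and V1 member with the smallest unadjusted p not called in each comparison. Other members are given by range and count, and those described further were chosen after their values were seen. From each pathway list up to 3 called genes per comparison are named. The values of 1 called list gene are not reported here. The alternatives tried were scaling by RLE or upper-quartile factors, no filter, a mean of at least 10 CPM, the replicate number as a block, DESeq2 1.42.0, the 6 libraries compared alone, a depth term, the 5 shallower libraries alone, and each library left out.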

Additional observations from a re-analysis of the deposited data

How the results depend on the processing

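The 12 V1 IDs (11 under the stricter filter) stayed below 0 in both comparisons of entpd5a+ cells under all 18 alternatives run, and no alternative called a member higher in entpd5a+ cells. In entpd5a+ against col9a2+ cells the 1 called member became 2 with a mean of at least 10 CPM and 2 with the depth term. The count was 3 with the replicate block, 3 with DESeq2, and 0 to 1 with a library left out. In double-positive against col9a2+ cells the count of 0 became 2 with DESeq2 and 1 with the depth term, and stayed at 0 with any library left out. In entpd5a+ against double-positive cells the 3 called became 7 with the replicate block, 10 with DESeq2 and 7 with the depth term. With a library left out the count was 0 to 5. It was 0 without entpd5a+ replicate 2, 1 without double-positive replicate 2 and 5 without entpd5a+ replicate 1. In the 6 libraries compared alone, ATP6V1H lost its call there (adjusted p = 0.0535). The median member difference was -0.77 to -0.56, 0.15 to 0.34 and -0.9995 to -0.71 with a library left out, for entpd5a+ against col9a2+, double-positive against col9a2+ and entpd5a+ against double-positive cells, and 0.0994 in double-positive against col9a2+ cells with a mean of at least 10 CPM. Over all genes the median shifted to between -0.10 and 0.17 over the alternatives. The share of all genes called rose as well, to 11.3%, 10.6% and 15.1% with DESeq2, in the same order of comparisons. It was 7.24%, 5.38% and 8.85% with the replicate block, and 6.52%, 6.90% and 9.43% with the depth term.

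Called list genes in entpd5a+ against col9a2+ cells (7) became 12 with the replicate block and 16 with DESeq2. They became 4 in the 6 libraries compared and 0 to 5 with a library left out. In double-positive against col9a2+ cells (2) they became 1 with no filter, 7 with DESeq2 and 5 with the depth term. With a library left out they became 0 to 1. In entpd5a+ against double-positive cells (12) they became 19 with the replicate block and 28 with DESeq2. With a library left out they became 6 to 11. The cause of these changes was not tested.

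The labels do not say that a replicate number marks a shared fish or sort, and 7 of 9 same-numbered pairs, not all, had a correlation of deviations across genes over 0.1 (range -0.106 to 0.332), so the block was kept as an alternative. Of 18 cases of a library set against another population, which count each pair from both sides, 11 correlated best with their own number. Every correlation over 0.1 was between libraries of the same depth group, and every one across depth groups was negative. Entpd5a+ 2 correlated with col9a2+ 3 at 0.234 and with col9a2+ 2 at -0.106. Within the shallower libraries, double-positive 2 correlated with col9a2+ 2 at 0.219 and with col9a2+ 1 at -0.001. Pairing apart from depth was not tested. Summed levels under RLE and upper-quartile factors, chosen after seeing the data, moved by less than 1 SD.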
